A study of Mus musculus with 16 samples.

Results

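The 4 mouse miRNAs described here, mmu-miR-376c-3p, mmu-miR-3063-3p, mmu-miR-302c-3p and mmu-miR-30b-3p (given without mmu- from here on), are 4 of the 1247 mouse miRNAs on the array and were chosen because their signals had been seen to drop together on some arrays of cells kept in plain medium and on 1 array of cells given Th2 cytokines and IL-33. Every row of the scanner files that carries 1 of these 4 names was taken, probe by probe and array by array. Because the signals themselves chose the members, their levels and differences are a description. Counts of members past a limma threshold stand beside the share of all tested miRNAs past it, and nothing is read from them.

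The cells were RAW264.7, a mouse macrophage-like line, and the study asked whether growth in an allergic, Th2-type cytokine environment changes the response to IL-33, an alarm cytokine. Total RNA came from 4 groups of 4 arrays: Th2_IL33 (48 h with IL-4 and IL-13 at 10 ng/ml, then 20 ng/ml murine IL-33 for 4 h), Media_IL33 (48 h in medium, then the same IL-33), Th2 (IL-4 and IL-13, no IL-33) and Media (medium, no IL-33). Cells of all groups were washed with PBS before the last step, and no group carried a genetic change. Replicates 1 to 4 were 4 separate experiments, each with 1 array of every group. The 16 arrays lay on 2 slides: slide 1 held Media_IL33 3 and 4, Th2 1, 2 and 3 and Media 2, 3 and 4, and slide 2 held the rest, including all Th2_IL33 arrays.

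A miRNA is cut from a hairpin precursor, of which either arm (5p or 3p) can enter an Argonaute protein, and bases 2 to 8 of the mature strand, the seed, pair with target mRNAs. miR-376c-3p belongs to the large miRNA cluster of the imprinted Dlk1-Dio3 domain, whose miRNAs are made from the maternal chromosome and are best known from embryo, placenta and brain. miR-302c-3p belongs to the miR-302 cluster, a hallmark of pluripotent stem cells. miR-30b-3p is the arm usually taken as the passenger in a member of the broadly expressed miR-30 family.

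The capture probes are shown because the miRNAs share a pattern over arrays while their probes and genomic loci differ. Each line gives the longest probe of a miRNA, 5′ to 3′, with the core that all of its probes hold in capitals.
miR-376c-3p probe: ACGTGAAATTTCCTCTATgtt
miR-3063-3p probe: GGCGAGAGATCAGGa
miR-302c-3p probe: CCACTGAAACATGGAAGCac
miR-30b-3p probe: GACGTAAACATCCACATCcca
miR-376a-3p probe: ACGTGGATTTTCCTCTa
miR-376b-3p probe: AAGTGGATGTTCCTCTAt
The files map these probes on build mm9 to chr12:110960981-110961000 (+ strand) for miR-376c-3p, chr11:95824672-95824685 (- strand) for miR-3063-3p, chr3:127248327-127248345 (+ strand) for miR-302c-3p and chr15:68169037-68169056 (- strand) for miR-30b-3p. The 4 loci are thus on 4 chromosomes. In RefSeq (GRCm38.p6) the Mir302c hairpin lies within the span of Larp7, which encodes a 7SK RNA-binding protein, and the Mir3063 hairpin within the span of Igf2bp1, which encodes an mRNA-binding protein. Mir376c and Mir30b lie within no other gene of that table.

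The probes have little sequence in common. The longest run that any pair of the 4 shares is 6 bases long, AAACAT between miR-302c-3p and miR-30b-3p, and 17 of the 1247 miRNAs have a longest probe that holds it. The GC content of the longest probe is 33.3% for miR-376c-3p, 60% for miR-3063-3p, 50% for miR-302c-3p and 47.6% for miR-30b-3p, against a median of 50% over the 3105 mouse probes. The mature sequences of miR-302c-3p and miR-3063-3p in RefSeq (GRCm38.p6), with the seed in capitals, differ in their seeds.
miR-302c-3p mature: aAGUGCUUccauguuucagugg
miR-3063-3p mature: uGAGGAAUccugaucucucgcc

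Levels are given as log2 relative signal: the summed processed intensity of a miRNA's probes divided by a scaling value for that array, the 75th percentile of the 178 miRNAs that every array detected, so that 0 is that percentile. Values under a floor of -4.82, the 1st percentile of detected signals, were set to it and have no order among them. An array is called low for a miRNA when it lies 2 or more log2 units below that miRNA's own median over the 16 arrays. A miRNA whose median lies less than 2 log2 units above the floor cannot be low on any array, which limits the counts of low miRNAs. All 4 members were among the 231 miRNAs tested, which had to be detected by the scanner software on all 4 arrays of at least 1 group. They passed through the groups where they are high (Th2 and Media_IL33 for all 4), so their passing says nothing about a difference.

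Media 3 stands apart from the other arrays before any of these miRNAs is considered. On it, 14 of the 231 tested miRNAs lay 2 or more log2 units above their own median, against 0 on each of the other 15 arrays, and 38 miRNAs were detected on that array alone, against 0 to 3 on each other array. The number of miRNAs detected per array ran from 206 to 256. As a check of the cell label, 5 of 5 myeloid miRNAs (miR-223-3p, miR-142a-3p, miR-142a-5p, miR-21a-5p and miR-146a-5p) were detected on all 16 arrays, and 14 of 16 markers of liver, nerve, muscle, epithelium, red cells and stem cells on none. The exceptions were miR-206-3p, a muscle miRNA detected on 11 arrays, and miR-294-3p, a stem cell miRNA detected on 1. The member miR-302c-3p, of a stem cell cluster, was not on this list of markers, and it was detected on 13 arrays. The summed relative signal of the 16 markers was 0.147 to 0.269 on Media 1, 3 and 4 and Th2_IL33 2, and 0.177 to 0.324 on the other 12 arrays.

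miR-376c-3p was a bright and nearly constant signal on 12 arrays and low or missing on 4. Its log2 relative signal was 2.40, -0.28, 1.98 and 2.23 in Th2_IL33 (replicates 1 to 4). It was 2.15, 2.33, 2.11 and 1.96 in Media_IL33, and 1.90, 2.28, 2.15 and 1.97 in Th2. In Media it was -3.86, 2.42, -4.82 and 0.85. The highest relative signal of all 16 arrays, on Media 2, thus came from the same group as Media 1 and Media 3, the 2 arrays without detection. In summed intensity Media 2 (2285) was not the highest. Over the 12 arrays other than Media 1, 3 and 4 and Th2_IL33 2, the signal spanned 0.52 log2 units (SD 0.18).

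Against its median of 2.05, miR-376c-3p stood at -2.33 log2 units on Th2_IL33 2 and -1.20 on Media 4. The computed values of -5.90 on Media 1 and -6.87 on Media 3 rest on signal not above background and are no exact sizes. Th2_IL33 2, Media 1 and Media 3 are the 3 arrays counted as low. At the threshold of 2 units, 4.33% of the 231 tested miRNAs were low on Th2_IL33 2, 4.33% on Media 1, 1.73% on Media 3 and 0.866% on Media 4. In summed processed intensity the 12 arrays ran from 2008 to 3264, against 470.0 on Th2_IL33 2 and 42.6, 1.74 and 1020 on Media 1, 3 and 4. On Media 1 and Media 3 the miRNA was not detected, so those values have no order and the size of the drop there is not known, while on Th2_IL33 2 and Media 4 it was detected.

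**Figure D1:**
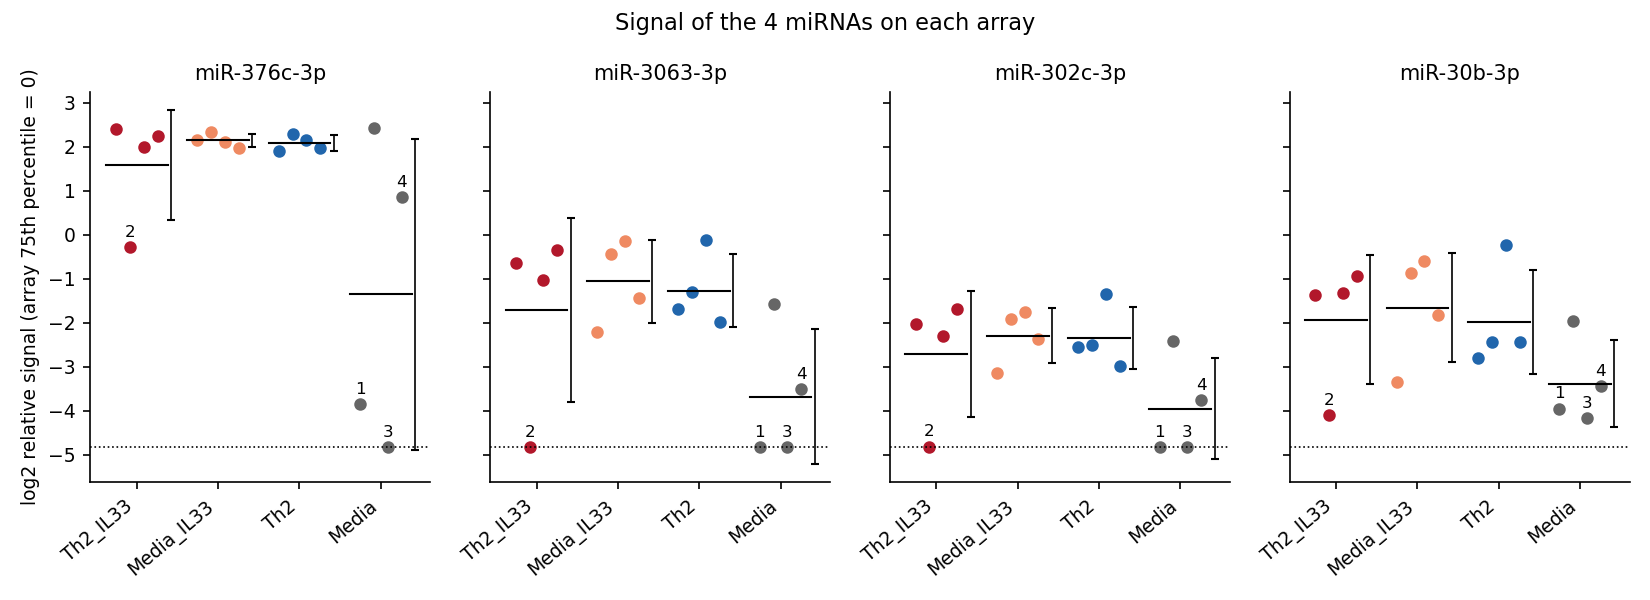
Log2 relative signal of each miRNA on each array, by group; the horizontal bar is the group mean, the error bar at its right 1 SD (n = 4 arrays), the dotted line the floor at -4.82, and replicate numbers mark Th2_IL33 2 and Media 1, 3 and 4. miR-376c-3p sits between 1.90 and 2.42 on 12 arrays, while the other 3 miRNAs spread more widely than it within Th2_IL33, Media_IL33 and Th2.

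All 4 probes of miR-376c-3p, of 18 to 21 bases with 40 spots in total on each array, showed the same pattern. The 21-base probe averaged 132 ± 15.2 on Th2_IL33 2 (SD, 10 spots). On Media it averaged 11.3 ± 4.9 on replicate 1, 685 ± 20.8 on replicate 2 (8 spots after outliers), -0.23 ± 2.8 on replicate 3 and 284 ± 28.5 on replicate 4. The 18-base probe gave 103 ± 14.4 on Th2_IL33 2 and 10.4 ± 6.2, 575 ± 53.0, 1.20 ± 3.4 and 222 ± 20.7 on Media 1 to 4. These SDs are over the 8 to 10 spots of a probe on 1 array and are smaller than the gaps between the arrays.

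The low signal was not limited to 1 side of the array. On Media 1 and Media 3 none of the 40 spots was well above background, while on each of the other 14 arrays, Th2_IL33 2 and Media 4 included, all 40 were. The spots in the upper and lower parts of the array averaged 114 and 123 on Th2_IL33 2, 10.2 and 10.4 on Media 1, 0.29 and 0.70 on Media 3, and 243 and 272 on Media 4. The scanner software had marked 1 of the 40 spots as an outlier on Th2_IL33 2, and 1, 2 and 1 on Media 1, 3 and 4, against 0 to 5 on the other arrays. On the other 12 arrays the longest probe gave 1.03 to 1.19 times the signal of the shortest.

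**Figure D2:**
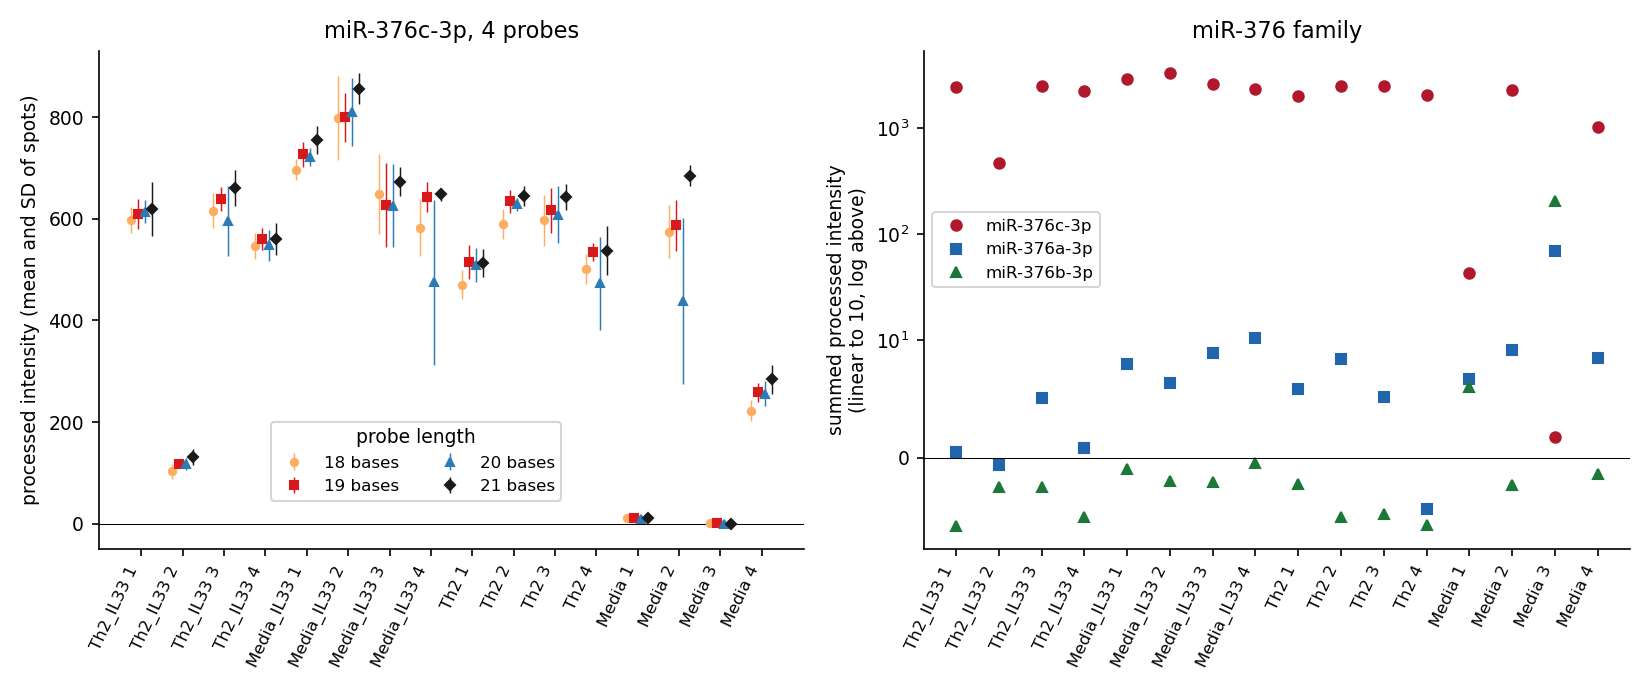
Left, mean processed intensity of each miR-376c-3p probe on each array with the SD over its spots; right, summed processed intensity of miR-376c-3p, miR-376a-3p and miR-376b-3p on an axis that is linear to 10 and logarithmic above. The 4 probes move together, and on Media 3 alone miR-376a-3p and miR-376b-3p stand above miR-376c-3p.

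miR-3063-3p was low on the same arrays and also on Media 4, but it varied on the others too. Its log2 relative signal was -0.65, -4.82, -1.02 and -0.34 in Th2_IL33, and -2.21, -0.44, -0.16 and -1.44 in Media_IL33. It was -1.68, -1.31, -0.11 and -1.98 in Th2, and -4.82, -1.58, -4.82 and -3.51 in Media. The values on Th2_IL33 2, Media 1 and Media 3 are at the floor, while the 12 other arrays spanned 2.10 log2 units (SD 0.73, median of all arrays -1.51). Its 15-base probe averaged 16.4 ± 5.9 on Th2_IL33 2 (SD, 19 spots) and 1.90 ± 3.3, 110 ± 59.4, 0.054 ± 5.3 and 43.5 ± 7.6 on Media 1 to 4. On the 12 other arrays the 15-base probe gave 2.10 to 6.97 times the signal of the 14-base probe.

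miR-302c-3p had the lowest median of the 4 miRNAs, and it was low on Th2_IL33 2, Media 1 and Media 3. Its log2 relative signal was -2.02, -4.81, -2.30 and -1.68 in Th2_IL33, and -3.14, -1.91, -1.76 and -2.38 in Media_IL33. It was -2.55, -2.50, -1.36 and -2.99 in Th2, and -4.82, -2.42, -4.82 and -3.76 in Media. With a median of -2.46, it met the floor at -2.37 log2 units from its median, so its drop on Media 1 and Media 3 has only a lower bound. Its 20-base probe gave 12.9 ± 5.4 on Th2_IL33 2 (SD, 13 spots), and 6.03 ± 4.9, 42.6 ± 13.3, 9.90 ± 3.2 and 23.0 ± 5.5 on Media 1 to 4, and none of the 40 spots of its 3 probes was well above background on Th2_IL33 2, Media 1 or Media 3.

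miR-30b-3p, too, was highest on Media 2 among the Media arrays, but was low on 0 arrays by the threshold. Its log2 relative signal was -1.36, -4.11, -1.33 and -0.94 in Th2_IL33, and -3.35, -0.87, -0.61 and -1.83 in Media_IL33. It was -2.81, -2.44, -0.23 and -2.45 in Th2, and -3.96, -1.97, -4.17 and -3.45 in Media. Its distances from the median, -1.91 on Th2_IL33 2, -1.75 on Media 1 and -1.97 on Media 3, lie just outside the threshold, on arrays where it was not detected, and that of miR-3063-3p on Media 4, -2.004, just inside it. Media_IL33 1, at -1.14 log2 units from the median, was nearly as low as Media 4 at -1.24. The name of the group therefore fits miR-30b-3p less well, as its values run on without a gap into the other arrays.

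At a looser threshold of 1 log2 unit all 4 members were low on Th2_IL33 2, Media 1, Media 3 and Media 4. On those arrays 14.7%, 13.4%, 9.09% and 3.46% of the 231 tested miRNAs were low by that measure. On the other 12 arrays only miR-30b-3p, on Media_IL33 1, was. The 4 arrays come from 4 different experiments, replicate 2 for Th2_IL33 and replicates 1, 3 and 4 for Media. They were spread over both slides, Media 3 and Media 4 on slide 1 and Th2_IL33 2 and Media 1 on slide 2. No other array of the same experiment was low for miR-376c-3p. Among the 12 others, 2 arrays from the experiment of Media 1 were the lowest: Th2 1 for miR-376c-3p (-0.14 from its median), and Media_IL33 1 for miR-3063-3p, miR-302c-3p and miR-30b-3p. Th2_IL33 1, of the same experiment, was above its median for miR-376c-3p (0.35). The part of the experiment in the drop was not tested.

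**Figure D3:**
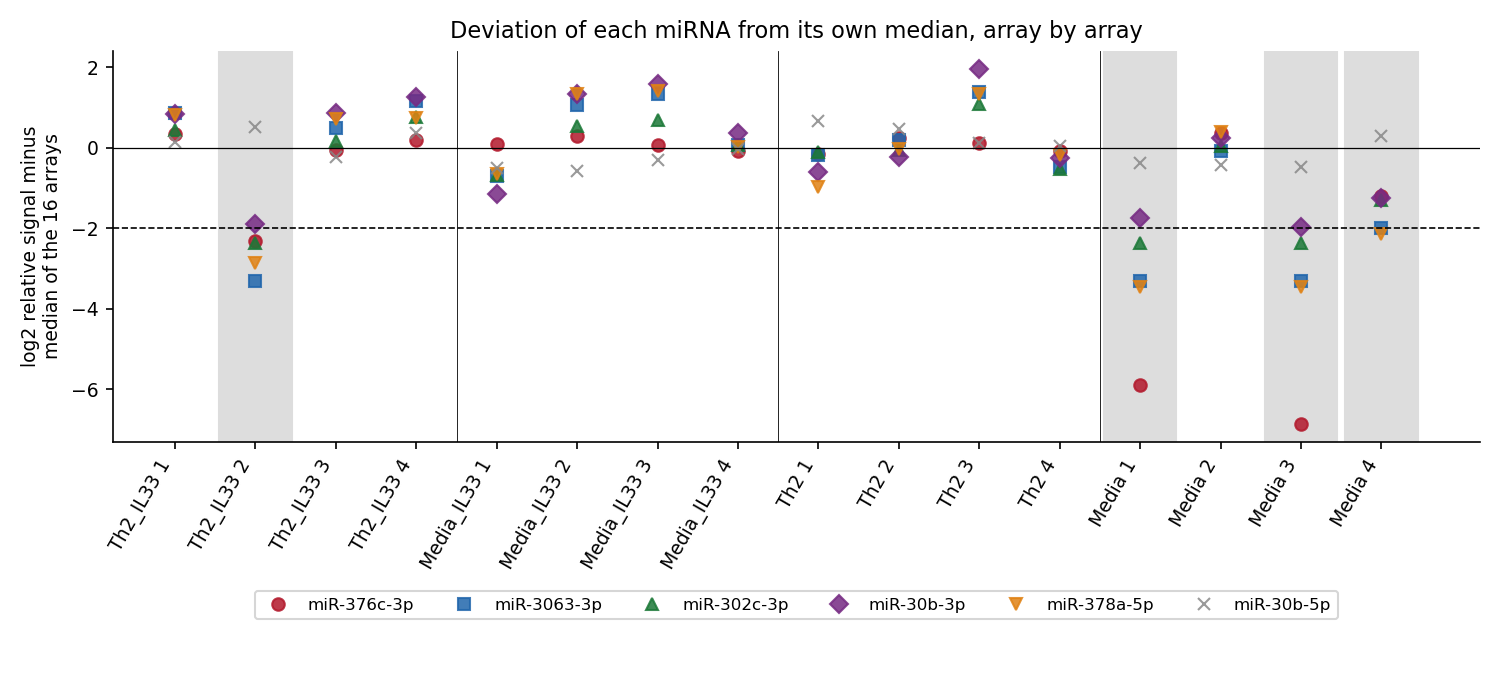
Log2 relative signal of each miRNA minus its own median over the 16 arrays, array by array, with Th2_IL33 2 and Media 1, 3 and 4 shaded and the threshold of -2 dashed. The 4 members and miR-378a-5p go down together in the shaded columns, while miR-30b-5p, the other arm of the miR-30b hairpin, is above its median on Th2_IL33 2 and Media 4 and below it on Media 1 (-0.38) and Media 3 (-0.48).

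On the 12 remaining arrays miR-376c-3p varied least, and the other 3 shared their highest and lowest arrays. Th2 3 was the highest of the 12 arrays for miR-3063-3p, miR-302c-3p and miR-30b-3p (1.40, 1.10 and 1.97 log2 units above their medians), while miR-376c-3p was 0.11 above its median there. Media_IL33 1 was the lowest for the same 3 (-0.70, -0.68 and -1.14), while miR-376c-3p was 0.10 above its median. Over those 12 arrays the root mean square difference between median-centred profiles was 0.33 log2 units between miR-3063-3p and miR-302c-3p and 0.35 between miR-3063-3p and miR-30b-3p, against 0.73 between miR-376c-3p and miR-3063-3p. It was 0.56 between miR-302c-3p and miR-30b-3p, no smaller than the 0.49 between miR-376c-3p and miR-302c-3p. These are descriptions over arrays that share a scaling, and pairs from the same experiment are among them.

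Outside the 4 members, miR-378a-5p, whose hairpin lies in Ppargc1b, a gene for a regulator of mitochondrial metabolism, had the profile most like that of miR-376c-3p. It was low on Th2_IL33 2, Media 1, Media 3 and Media 4, at -2.87, -3.45, -3.45 and -2.14 log2 units from its median, and its root mean square difference from miR-376c-3p over 16 arrays was 1.27, below the 1.31 of miR-3063-3p, the 1.49 of miR-302c-3p and the 1.82 of miR-30b-3p. Its log2 relative signal was -0.56, -4.24, -0.67 and -0.64 in Th2_IL33, -2.02, -0.02, 0.03 and -1.34 in Media_IL33, -2.36, -1.40, -0.04 and -1.54 in Th2, and -4.82, -0.97, -4.82 and -3.51 in Media. It too was highest on Media_IL33 2 and 3 and Th2 3. No run of more than 5 bases is shared by its longest probe and that of any member.

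The next 6 by the same rule were miR-467b-3p, miR-467c-3p, miR-467e-3p, miR-669b-5p, miR-467a-3p and miR-467d-3p, of the rodent miRNA cluster in an intron of Sfmbt2, which encodes a Polycomb protein. All 6 were below their medians on Th2_IL33 2, Media 1 and Media 4, but on Media 3 only miR-669b-5p was. miR-467b-3p stood at -2.54 log2 units from its median on Th2_IL33 2 and -2.48 on Media 1, but at 2.47 on Media 3. The other 4 miR-467 members were likewise at -2.13 to -1.78 on Th2_IL33 2, -2.23 to -2.03 on Media 1 and 2.09 to 2.72 on Media 3. miR-669b-5p was at -2.13 on Th2_IL33 2, -1.14 on Media 1 and -0.89 on Media 3. On Media 4 the distances were smaller: -0.76 for miR-467b-3p, -0.74 to -0.51 for the other 4 miR-467 members and -0.70 for miR-669b-5p.

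At the threshold of 2 log2 units, which dim miRNAs near the floor cannot reach, the arrays thus share few low miRNAs. The overlap at 1 log2 unit was not counted. Of the 10 low on Th2_IL33 2 and the 10 low on Media 1, 7 were common (70.0% of each), whereas all 4 low on Media 3 and both low on Media 4 were also low on the first pair. The 4 that Th2_IL33 2, Media 1 and Media 3 have in common are miR-376c-3p, miR-3063-3p, miR-302c-3p and miR-378a-5p. Of the 14 miRNAs high on Media 3, by 2.08 to 3.42 log2 units, 10 belong to the miR-466, miR-467 and miR-669 families.

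The other arms of the hairpins, which the choice of members did not use, gave little signal, with miR-30b-5p as the exception. miR-376c-5p, miR-3063-5p and miR-302c-5p were detected on 0 of 16 arrays. miR-30b-5p, usually taken as the main arm of its hairpin, was detected on all 16. Its median over the 16 arrays was -2.32, summed over 2 probes, against -2.20 for miR-30b-3p, summed over 4. Signals from different probes do not show which arm was more abundant. For miR-30b-5p the values were -2.19, -1.80, -2.54 and -1.95 in Th2_IL33, and -2.83, -2.91, -2.63 and -2.36 in Media_IL33. They were -1.65, -1.86, -2.20 and -2.29 in Th2, and -2.70, -2.74, -2.80 and -2.02 in Media. Th2_IL33 2 was the highest Th2_IL33 array of miR-30b-5p and Media 4 its highest Media array, so it did not follow its partner arm on these 2 arrays. Its difference was 0.57 ± 0.21 (SE) for Th2 minus Media (limma adjusted p = 0.123) and 0.56 ± 0.21 for Th2_IL33 minus Media_IL33 (limma adjusted p = 0.137).

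Relatives of the members were mostly undetected. Of 100 arms of Dlk1-Dio3 hairpins on the array, miR-376c-3p among them, 92 were detected on no array. Besides it, 4 were tested (miR-1188-3p, miR-3072-5p, miR-485-3p and miR-494-3p), and 0 passed the limma threshold in either direction in any of the 5 comparisons, nor at an unadjusted p under 0.05. Their median log2 difference was -0.06 for Th2 minus Media, against 0.06 over all 231, and 0.00 for Media_IL33 minus Media, against 0.02. The brightest of the 4, miR-494-3p, stayed between -0.32 and 0.73 on all 16 arrays, and was 0.44 on Th2_IL33 2 and 0.04, -0.32 and 0.41 on Media 1, 3 and 4. miR-3072-5p stayed between -3.15 and -2.58. In contrast, miR-1188-3p (median -3.90) was at the floor of -4.82 on Th2_IL33 2 and Media 1, and at -0.48 and -4.28 on Media 3 and 4. miR-485-3p (median -2.91) was at -4.33 on Th2_IL33 2 and -4.18, -0.71 and -3.32 on Media 1, 3 and 4.

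On Media 3, 4 other arms of the cluster went the opposite way to miR-376c-3p. miR-376a-3p and miR-376b-3p, its close relatives, were detected on that array alone, with summed intensities of 69.2 and 203.9. Their highest values on any other array were 10.4 and 6.03. miR-1188-3p and miR-485-3p were 3.42 and 2.19 log2 units above their medians there, while miR-494-3p and miR-3072-5p were at -0.73 and -0.36 from theirs. The probes are alike but distinct: from the first base, the longest miR-376a-3p probe differs from that of miR-376c-3p at 2 of 17 bases and the miR-376b-3p probe at 4 of 18, so cross-hybridisation between the 3 is possible and was not tested.

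Of 13 arms of the miR-302 cluster and miRNAs with its seed, 11 were detected on no array, miR-294-3p on 1 and miR-302c-3p on 13, and 0 other than miR-302c-3p could be tested. Of the 11 miR-30 family arms, 5 were detected on no array, and the 5 tested besides miR-30b-3p (miR-30a-5p, miR-30b-5p, miR-30c-5p, miR-30d-5p and miR-30e-5p) were detected on all 16. Of these 5, 0 passed the limma threshold in any comparison, while 3 did at an unadjusted p under 0.05 for Th2 minus Media and 4 for Th2_IL33 minus Media_IL33, against 56 and 47 of all 231. Their median log2 differences were 0.36 and 0.37 in those 2 comparisons, against 0.06 and 0.08 over all tested miRNAs.

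Group differences of the members depended on the low arrays, for which the members had been chosen. For Th2 minus Media the log2 differences were 3.43 ± 1.20 (limma SE) for miR-376c-3p, 2.41 ± 0.92 for miR-3063-3p, 1.61 ± 0.66 for miR-302c-3p and 1.40 ± 0.79 for miR-30b-3p, and 0 of 4 passed the limma adjusted threshold, which 9.52% of all 231 tested miRNAs did (8.66% higher in Th2). At an unadjusted p under 0.05 the count was 3 of 4. miR-376c-3p averaged 2.08 ± 0.17 in Th2 and -1.35 ± 3.53 in Media (log2, SD, n = 4 each) and was higher in Th2 in 3 of 4 experiments. The groups overlapped, because Media 2 was above every Th2 array in relative signal. Media 2 had the smallest scaling value of the 16 arrays (427). Before scaling, its summed intensity of 2285 was below that of Th2 2 (2497) and Th2 3 (2464).

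For Media_IL33 minus Media the differences were 3.49 ± 1.20, 2.62 ± 0.92, 1.66 ± 0.66 and 1.72 ± 0.79 in the same order of members, and again 0 of 4 passed, with 1.73% of all tested miRNAs passing and 4 of 4 members at an unadjusted p under 0.05. These 2 comparisons share the Media arrays, so the likeness of their values follows from the same 4 arrays. As the members were chosen for their drop on Media arrays, nothing is read from these counts.

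Without Media 1, Media 3 and Th2_IL33 2 the difference of miR-376c-3p was 0.44 ± 0.30 for Th2 minus Media and 0.50 ± 0.30 for Media_IL33 minus Media. With Media 4 left out as well, which leaves Media 2 as the only Media array, assumed to vary like the other groups, it was -0.34 ± 0.20 and -0.28 ± 0.20. The members were chosen for their drop on the arrays left out, so this shrinkage and change of sign follow from that choice and are no test. For miR-3063-3p, miR-302c-3p and miR-30b-3p the Th2 minus Media difference without the 4 arrays was 0.30 ± 0.76, 0.07 ± 0.58 and -0.01 ± 1.02. With Media 2 as the only Media array, these cannot show that a difference is absent.

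**Figure D4:**
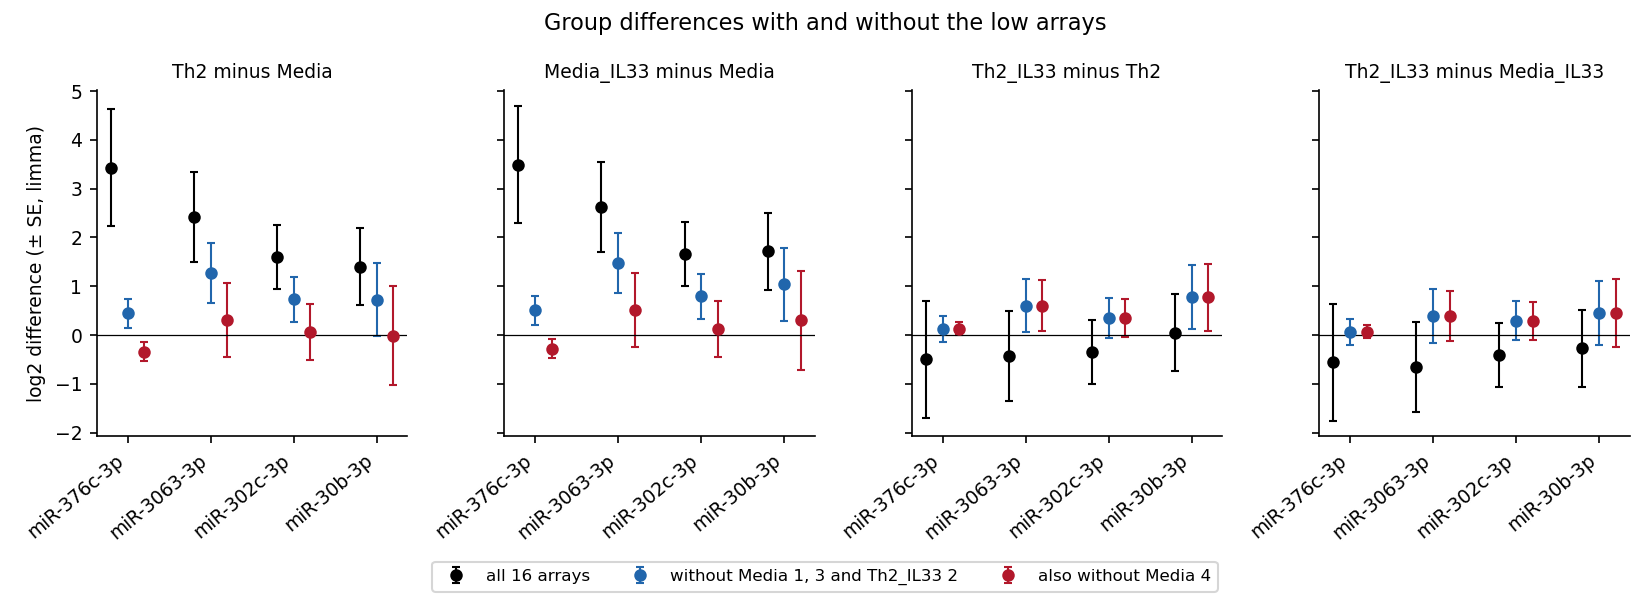
Log2 difference with its limma SE for each miRNA in 4 comparisons, from all 16 arrays, without Media 1, Media 3 and Th2_IL33 2, and without Media 4 as well. For miR-376c-3p the difference from Media shrinks from over 3 to under 1 and then to below 0 as the low arrays are left out, which follows from choosing the members for their drop on those arrays.

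With IL-33 in Th2-grown cells (Th2_IL33 minus Th2) the differences were -0.50 ± 1.20, -0.44 ± 0.92, -0.35 ± 0.66 and 0.05 ± 0.79 for miR-376c-3p, miR-3063-3p, miR-302c-3p and miR-30b-3p. For Th2_IL33 minus Media_IL33 they were -0.56, -0.65, -0.41 and -0.27, with the same errors. These limma errors rest on a variance shared by the 4 groups, although the groups vary unequally. For miR-376c-3p the SD was 3.53 in Media, 1.25 in Th2_IL33, 0.17 in Th2 and 0.15 in Media_IL33. In both comparisons 0 of 4 members passed, against 1.73% and 9.52% of all tested miRNAs (in the second 8.23% higher and 1.3% lower in Th2_IL33). At an unadjusted p under 0.05 it was 0 of 4 as well. Without Th2_IL33 2 alone the signs turned for miR-376c-3p (0.13 and 0.06), miR-3063-3p (0.60 and 0.39) and miR-302c-3p (0.35 and 0.29), and for miR-30b-3p against Media_IL33 (0.45). The members were chosen for their drop on that array too, so nothing is read from these signs. The difference between the IL-33 effects in Th2-grown and medium-grown cells (interaction) was -3.99 ± 1.70, -3.06 ± 1.31, -2.01 ± 0.93 and -1.67 ± 1.11, with 0 of 4 passing, 0.0% of all 231 passing, and 3 of 4 members and 5 of all 231 at an unadjusted p under 0.05.

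Slide was a batch that held more than 1 group, but not evenly. Every Th2_IL33 array was on slide 2, and Th2 1, 2 and 3 were on slide 1. For Th2_IL33 minus Th2, slide and group can therefore hardly be told apart, and only differences from Media are given here. With slide as a block the Th2 minus Media difference of miR-376c-3p was 3.43 ± 1.21, and it was 2.63 ± 1.57 within slide 1 (3 arrays each) and 5.83 ± 1.27 within slide 2, where Th2 4 and Media 1 are lone arrays assumed to vary like the other groups. For Media_IL33 minus Media it was 3.73 ± 1.24 with the block, 2.55 ± 1.75 within slide 1 (2 arrays against 3) and 6.10 ± 1.10 within slide 2 (2 arrays against Media 1). Leaving out single arrays, the Th2 minus Media difference ran from 2.27 without Media 3 to 4.69 without Media 2, and the Media_IL33 minus Media difference from 2.33 to 4.75 without the same arrays. Without Media 2, miR-376c-3p and miR-3063-3p passed the limma threshold for Th2 minus Media, and miR-376c-3p for Media_IL33 minus Media. Without Media 4, miR-376c-3p passed for Th2 minus Media, and without Th2_IL33 2, miR-3063-3p did. These calls come from the values that chose the members, and Media 2 is the Media array without the drop, so nothing is read from them.

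Quality values of each array differed among the 4 low arrays. Most are written by the scanner software, while the scaling value was computed here. Of 17 such values, the low array lay outside the range of the 12 other arrays in 5 for Th2_IL33 2, 3 for Media 1, 7 for Media 3 and 4 for Media 4. In 0 of the 17 did all 4 lie outside on the same side. The like count was not made for the other arrays, so these counts alone do not set the 4 apart. Media 2, which lacks the drop, had the largest median CV (24.4%), the largest percentage of population outliers (7.69%) and the fewest detected miRNAs (206). The software's own quality ranges were met by all 4 low arrays. The 3 arrays it put out of range, for spread between replicate spots, were Media_IL33 3, Th2 3 and Media 2, on which miR-376c-3p was at 2.11, 2.15 and 2.42.

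The stringency spike-in ratio, which reports how well mismatched targets were washed off, was 1.46 on Th2_IL33 2 and 1.80, 1.20 and 1.20 on Media 1, 3 and 4, against 1.18 to 1.79 on the other 12 arrays. Media 1 had the highest ratio of all 16 arrays, and Media 3 and Media 4 were next to the lowest. The hybridisation spike-in signal (log10) was 3.92 on Th2_IL33 2 and 3.84, 4.08 and 4.01 on Media 1, 3 and 4, against 3.83 to 4.00. The labelling spike-in signal (log10) was 2.99 on Th2_IL33 2 and 3.00, 3.12 and 3.01 on Media 1, 3 and 4, against 2.91 to 3.04. Media 3 had the highest labelling and hybridisation signals of all 16 arrays.

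The median CV between spots of a probe was 8.37% on Th2_IL33 2 and 13.8%, 7.80% and 7.72% on Media 1, 3 and 4, against 8.05% to 24.4% on the others. Media 4 and Media 3 had the smallest spread between spots of all arrays. The fitted spatial trend over the array had a root mean square of 0.837 on Th2_IL33 2 and 2.33, 1.66 and 1.64 on Media 1, 3 and 4, against 1.73 to 2.29. It was the 1 quality value in which all 4 arrays lay outside the range of the other 12, but Media 1 lay above that range and the other 3 below it. The mean of the negative control spots was 5.67 on Th2_IL33 2 and 4.99, 3.65 and 6.07 on Media 1, 3 and 4, against 5.15 to 6.87.

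Measures of overall brightness differed among the 4 arrays. The median spot signal was -0.237 on Th2_IL33 2, the lowest of all 16 arrays, and 0.806, 0.794 and 0.514 on Media 1, 3 and 4, against 0.330 to 1.51 on the others. The 75th percentile of spot signals was 6.30 on Th2_IL33 2, again the lowest, and 7.47, 9.91 and 7.498 on Media 1, 3 and 4, against 6.99 to 9.49, which made Media 3 the highest. The 75th percentile of miRNA signals used for scaling was 571 on Th2_IL33 2 and 618, 614 and 566 on Media 1, 3 and 4, against 427 to 653.9 on the others. Detected miRNAs numbered 219 on Th2_IL33 2 and 228, 252 and 236 on Media 1, 3 and 4, against 206 to 256. Media 3 had the most spots well above background of all 16 arrays (7741) and Th2_IL33 2 the fewest (6280). The part of array quality in the drop was not tested, since the members were chosen on these same arrays.

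**Figure D5:**
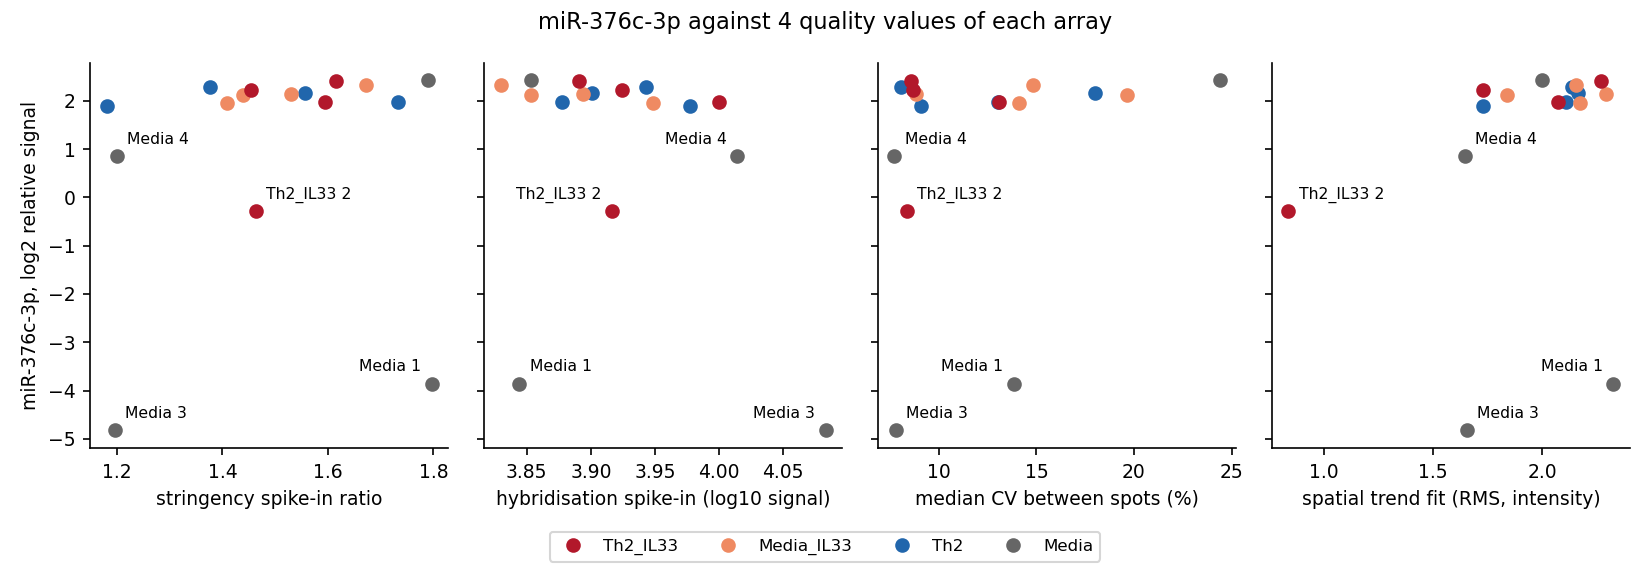
Log2 relative signal of miR-376c-3p against 4 quality values of each array, coloured by group, with Th2_IL33 2 and Media 1, 3 and 4 labelled. Th2_IL33 2 has a spatial trend of 0.837 and Media 3 a hybridisation signal of 4.08, values that none of the 12 unlabelled arrays reaches.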

How the data were processed

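Per the file headers, each array was scanned in 1 colour and read with Agilent Feature Extraction 10.7.3.1, which subtracted background and spatial trend; the deposited processed signal is an intensity per spot (49880 mouse miRNA spots per array), not normalized between arrays, and can fall below 0. The authors' deposited table holds quantile-normalized intensity per probe; the submitters' processing notes name Partek 6.6 and RMA. Spots marked as outliers (2040 to 3929 per array) were left out, spots of a probe averaged, probes of a miRNA summed, and arrays scaled. limma 3.58.1 in R 4.3.3 fitted the 4 group means to 231 miRNAs, with Benjamini-Hochberg adjustment at 0.05, after a run on simulated data. The number of arrays limits precision.

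Members and lists were chosen with earlier results of these data known. Besides miR-378a-5p, up to 6 other miRNAs were named: those low on the largest number, at least 1, of the arrays on which miR-376c-3p is low, ties going to the nearest profile; from families, those past the threshold or up to 4 tested. Replicate numbers mark the same experiment per the labels' descriptions, which pairs the arrays; median correlations of deviations from group means between same-numbered arrays were -0.13, -0.12, 0.32 and 0.16. Alternatives covered scaling, background, outlier spots, floor, blocks, array weights, thresholds and left-out arrays.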

Additional observations from a re-analysis of the deposited data

Results flagged for a closer look

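In 48 groups of 4 arrays (12 named miRNAs in 4 groups), 8 values lay apart from the other 3 of their group by Dixon's 95% criterion. Chance alone would mark about 1 in 20 groups, but the miRNAs were named for low values on Th2_IL33 2 and Media arrays, so their number is no test and the values are a description. In Th2_IL33, replicate 2 was apart on the low side for miR-376c-3p (-0.28), miR-3063-3p (-4.82), miR-30b-3p (-4.11), miR-378a-5p (-4.24) and miR-669b-5p (-4.67), all in log2 relative signal. These 5 share 1 array and are not separate events. In Th2, replicate 3 was apart on the high side for miR-30b-3p (-0.23) and miR-467d-3p (-2.21). In Media, replicate 4 was apart on the high side for miR-30b-5p (-2.02). The low values on Media 1 and Media 3 were not marked in this way, because 2 low arrays in a group of 4 leave no single array apart.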

How the results depend on the processing

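The count of low arrays for miR-376c-3p stayed within 1.5 times of 3 under every alternative run. For miR-3063-3p (4) it was 0 with normexp and 1 when centred on its own group. For miR-302c-3p (3) it was 0 with normexp, 0 at a threshold of 3 log2 units, 1 when centred on its own group and 0 for the 18-base probe alone. For miR-30b-3p (0) it was 1 with quantile normalization, 4 with total gene signal, 1 in the authors' table, 5 at a threshold of 1 log2 unit, 2 when centred on its own group, 2 for the 20-base probe alone, and 0 to 2 with 1 array left out. Normexp with an offset of 50 compresses dim signals by construction. Members past the threshold were 2 with array weights for Th2 minus Media, 0 to 2 there and 0 to 1 for Media_IL33 minus Media with 1 array left out, and 0 in every other setting. With the replicate block, 0 members and 0 of their partner arms and families passed in each comparison; over all tested miRNAs it moved the count to 24 against 22 for Th2 minus Media and for Th2_IL33 minus Media_IL33, and to 3 against 4 for Th2_IL33 minus Th2. With slide added, 1 partner arm or family member (miR-30b-5p) passed for Th2 minus Media and 3 for Th2_IL33 minus Media_IL33. Those counts were otherwise 0, except 2 and 4 with array weights, 0 to 1 and 0 to 3 with 1 array left out, and, for Th2_IL33 minus Media_IL33, 1 with normexp and 1 with slide as a block. Leaving out Media 1, 3 and 4 and Th2_IL33 2 together was chosen after the data were seen. Over all tested miRNAs the count ran from 4 to 64 for Th2 minus Media, 0 to 5 for Media_IL33 minus Media, 0 to 6 for Th2_IL33 minus Th2, 12 to 71 for Th2_IL33 minus Media_IL33 and 0 to 1 for the interaction; array weights gave the 64, the 71 and the 1. Members were at the floor or not detected on up to 3 arrays, and the size of a drop there is not known.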
